A study of Mus musculus with 12 samples.

Results

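The ELOVL family of fatty acid elongases was followed across mouse adipose depots, ages and cold exposure in single-nucleus RNA sequencing. The members were the genes with the symbols Elovl1 to Elovl7, which are 7 of the 32285 genes in the deposited matrices, and each of them had a row. The study collected brown and white depots of male C57BL/6J mice on normal chow at different ages, and compared how depots respond to cold. There were 12 libraries, 1 per group: mPRAT and iBAT at 1, 2 and 6 months at 22 °C and at 6 months after 3 days at 4 °C, lPRAT at 2 and 6 months at 22 °C, and iWAT at 6 months at 22 °C and after 3 days at 4 °C. By common usage mPRAT and lPRAT are the medial and lateral fat around the kidney, iBAT is brown fat between the shoulder blades and iWAT is white fat of the groin. Ages follow the sample titles; the age field of the labels gives 4, 8 and 16 weeks, with 16 weeks for the libraries titled 6 months. The labels do not say how many mice were pooled in a library and no group has a replicate, so differences between 2 groups have no replicate check and no test, and intervals cover counting error only.

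Elongases lengthen fatty acids in the endoplasmic reticulum. Each ELOVL protein carries out the condensation of an acyl-CoA with malonyl-CoA, the slow step of the cycle, and shared enzymes then reduce, dehydrate and again reduce the product. The members differ in the chains they accept. ELOVL6 extends palmitate to stearate and so follows fatty acid synthase, and ELOVL3 makes longer saturated and monounsaturated chains and is known from brown fat, where its transcript is a classical cold-induced marker. ELOVL1 and ELOVL7 make saturated and monounsaturated very long chains, ELOVL2 and ELOVL5 extend polyunsaturated chains, and ELOVL4 makes the longest chains of retina, skin, brain and testis.

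In the GENCODE annotation of GRCm38 all members are protein-coding genes: Elovl1 lies at chr4:118428093-118432953 on the plus strand, Elovl2 at chr13:41182381-41220405 on the minus strand, Elovl3 at chr19:46131897-46135694 on the plus strand, Elovl4 at chr9:83778692-83806277 on the minus strand, Elovl5 at chr9:77917364-77984519 on the plus strand, Elovl6 at chr3:129532355-129638495 on the plus strand and Elovl7 at chr13:108214404-108285683 on the plus strand. Antisense neighbours with a row in the matrices overlap Elovl6 by 34 bases (Gm35986), Elovl1 by 53 bases (Cdc20) and Elovl3 by 10 bases (Pitx3). The use of strand in counting is not given in the sources used here, so reads in these overlaps could not be assigned. Annotated genes without a row overlap Elovl6 by 1671 bases (Gm43072) and Elovl7 by 374 and 467 bases (Gm32376 and Gm30747). RefSeq promoter windows of GRCm38.p6, from 250 bases before to 50 bases after a start site, matched 6 of the 7 members with 8 windows of 300 bases. The windows of Elovl6 and Elovl5 are shown because these 2 members had the largest counts in adipocyte-like nuclei. Capitals mark matches, on either strand, to an E-box (CACGTG) or a CCAAT box, which on the plus strand reads ATTGG when the match is on the minus strand. Both windows are from the plus strand.
Elovl6, chr3:129532136-129532435: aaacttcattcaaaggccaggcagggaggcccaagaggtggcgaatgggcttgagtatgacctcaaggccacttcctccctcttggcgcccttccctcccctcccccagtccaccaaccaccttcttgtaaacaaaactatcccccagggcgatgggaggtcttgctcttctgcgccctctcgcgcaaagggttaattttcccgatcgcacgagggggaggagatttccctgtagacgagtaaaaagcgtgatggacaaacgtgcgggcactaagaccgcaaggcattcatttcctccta
Elovl5, chr9:77917115-77917414: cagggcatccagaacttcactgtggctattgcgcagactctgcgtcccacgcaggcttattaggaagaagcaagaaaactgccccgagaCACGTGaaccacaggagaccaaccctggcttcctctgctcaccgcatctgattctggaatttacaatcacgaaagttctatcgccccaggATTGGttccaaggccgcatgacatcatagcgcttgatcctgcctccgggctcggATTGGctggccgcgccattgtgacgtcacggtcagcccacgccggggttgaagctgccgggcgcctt
The Elovl6 window held none of 5 motifs searched on both strands, which were the E-box CACGTG, the CCAAT box, the GC box GGGCGG, the sterol regulatory element TCACNCCAC and the PPAR response element. The Elovl5 window held an E-box at -161 and CCAAT boxes at -71 and -17 from the start site. Of all 32851 RefSeq windows of this length, 7.15% held the E-box, 37.4% the CCAAT box, 35.7% the GC box, 1.24% the sterol regulatory element and 0.0396% the PPAR response element. A match here is a description of letters and not of a bound site.

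Nuclei were assigned to classes by marker genes, and levels are given as CPM, the counts of a gene per 1000000 unique molecular identifiers summed over the nuclei of a class. After filters on depth and mitochondrial counts, 106898 of 119035 barcodes were kept, and 72515 nuclei carried at least 3 of 10 adipocyte markers without a rival class. A library held 2166 to 18409 of these adipocyte-like nuclei, with median depths of 923 to 6765 counts per nucleus and deposited totals of 5461133 to 87035783 counts. Between 0.364% and 14.6% of a library's adipocyte-like nuclei had just 3 markers, the minimum. In cold mPRAT 66.0% of barcodes exceeded the mitochondrial limit, against at most 22.1% in the other libraries. Any pair of libraries shared 0.0305% to 0.671% of barcodes. The depot labels matched the brown marker Ucp1, the uncoupling protein of thermogenic adipocytes. In mPRAT it stood at 113, 262 and 185 CPM at 1, 2 and 6 months and at 700 CPM in cold. In iBAT it stood at 342, 515, 426 and 1459 CPM, whereas lPRAT had 0 and 0.120 CPM and iWAT 0.719 CPM, or 29.8 CPM in cold.

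In adipocyte-like nuclei 3 members reached 20 CPM in at least 1 library: Elovl6, Elovl5 and Elovl3. Apart from this cut of 20 CPM, levels are compared between libraries for each gene and not between genes, because the counts are not corrected for length. Elovl6, the palmitate elongase, had 547, 577 and 497 CPM in mPRAT at 1, 2 and 6 months and 2496 CPM in cold mPRAT. In iBAT it had 688, 907 and 1501 CPM at the same ages and 4100.2 CPM in cold. It had 37.8 and 13.6 CPM in lPRAT at 2 and 6 months, and 30.6 CPM in iWAT and 214 CPM in cold iWAT. Every mPRAT and iBAT library was above every lPRAT and iWAT library, and the highest was 300.8 times the lowest. In the order of the 12 libraries, 2 neighbouring pairs had overlapping intervals, mPRAT at 1 and 2 months, and lPRAT at 2 months with iWAT at 22 °C.

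Elovl5, the polyunsaturated fatty acid elongase, varied less. It had 132, 104 and 79.4 CPM in mPRAT at 1, 2 and 6 months and 251 CPM in cold. In iBAT it had 50.5, 56.3 and 87.5 CPM and 192 CPM in cold. The lPRAT libraries had 65.3 and 60.1 CPM, and iWAT had 34.8 CPM at 22 °C and 91.1 CPM in cold. The highest level was 7.21 times the lowest, brown and white depots interleaved, and 4 of the neighbouring pairs overlapped.

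Elovl3, the brown fat elongase, stood at 0 to 8.76 CPM in the 22 °C libraries and at 2.74 to 204 CPM in cold. It had 0.931, 2.90 and 3.58 CPM in mPRAT at 1, 2 and 6 months and 102 CPM in cold. In iBAT the levels were 0.297, 4.92 and 8.76 CPM, and 204 CPM in cold. It had 0 counts in lPRAT at 2 months, where 3 counts would be 1.10 CPM, and 3 counts or 0.179 CPM at 6 months. In iWAT it had 0 counts at 22 °C, where 3 counts would be 0.0744 CPM, and 2.74 CPM in cold. The cold libraries of iBAT and mPRAT were the highest of the 12.

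**Figure D1:**
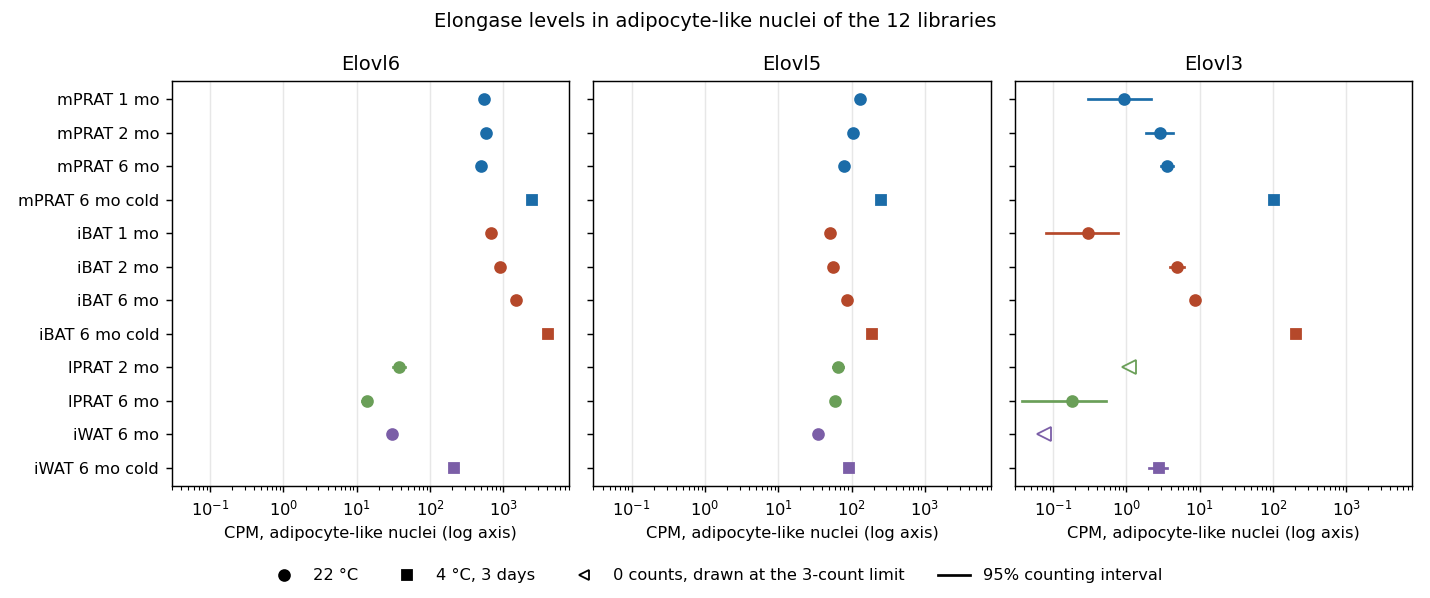
Level of Elovl6, Elovl5 and Elovl3 in adipocyte-like nuclei of each library, in CPM on a log axis, with exact Poisson 95% intervals; squares are the 4 °C libraries and the open triangle marks 0 counts, drawn at the level of 3 counts. Elovl6 separates mPRAT and iBAT (497 to 4100.2 CPM) from lPRAT and iWAT (13.6 to 214 CPM), and Elovl3 is highest in cold mPRAT (102 CPM) and cold iBAT (204 CPM).

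The other members stayed under 20 CPM in each library, with no correction for gene length. Elovl1, the very long chain elongase of most tissues, ranged from 2.30 CPM in cold iWAT to 9.53 CPM in lPRAT at 2 months, with 1725 counts in all and overlapping intervals in 10 of the neighbouring pairs. Elovl4 had 202 counts in all, with 1.62 CPM in cold iBAT, 1.58 CPM in cold mPRAT and at most 0.446 CPM in the other libraries. Elovl7 had 130 counts in all, from 0.0560 CPM in cold iWAT to 3.73 CPM in mPRAT at 1 month. Elovl2, which extends polyunsaturated chains in liver and testis, had 24 counts in all and at most 0.262 CPM, so it entered no ratio between libraries.

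Cold exposure was compared within each depot at 6 months, taking genes whose counts in the cold and 22 °C libraries came to 20 or more and calling a ratio at or beyond 2-fold. Elovl6, Elovl5 and Elovl3 were each more than 2-fold higher in cold in mPRAT, iBAT and iWAT. Elovl6 was 5.02-fold higher in mPRAT (95% counting interval 4.92 to 5.12), 2.73-fold higher in iBAT (2.71 to 2.75) and 6.99-fold higher in iWAT (6.55 to 7.46). The ratio was smallest in iBAT, whose level at 22 °C was the highest of the 3 depots.

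Elovl3 showed the largest ratios of the family. It went from 103 to 1164 counts in mPRAT, a 28.6-fold higher level (23.4 to 35.4). In iBAT it went from 446 to 16704 counts, 23.2-fold higher in CPM (21.2 to 25.6). In iWAT it went from 0 to 49 counts, 36.9-fold higher when the 22 °C library is set to the floor of 3 counts (log2 5.20, or 1.90 with 1 CPM added). That value leaves out the counting error of the cold library. Elovl5 was 3.16-fold higher in mPRAT (2.99 to 3.34), 2.19-fold in iBAT (2.12 to 2.27) and 2.62-fold in iWAT (2.44 to 2.81).

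Among the low members, Elovl4 was 9.12-fold higher in cold mPRAT (3.26 to 31.4), from 5 to 18 counts, and 4.13-fold higher in cold iBAT (2.57 to 6.98), from 20 to 133 counts. With 1 CPM added the iBAT call did not hold (log2 0.91 in place of 2.05) and the mPRAT log2 ratio was 1.14 in place of 3.19. Elovl7 was 2.53-fold higher in cold mPRAT (1.32 to 4.87), with 21 counts in each library. This call did not hold with all kept nuclei (log2 0.54) or with 1 CPM added (0.72), and the log2 ratio reached 2.09 without the mitochondrial limit. In iBAT Elovl7 had 7 counts in each library (0.137 CPM at 22 °C and 0.0853 CPM in cold), and in iWAT 12 counts at 22 °C and 1 in cold (0.298 and 0.0560 CPM), too few for a ratio. Elovl1 was past 2-fold lower in cold, in iBAT at a log2 ratio of -1.05 (-1.27 to -0.84) and in iWAT at -1.04 (-1.56 to -0.55), from 190 to 41 counts. In mPRAT its log2 ratio was 0.30 (-0.10 to 0.68). The Elovl1 call in iBAT did not hold under 4 of 11 alternative settings, with log2 ratios from -1.06 to -0.87, and that in iWAT under 3, from -1.15 to -0.76.

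Of the members with enough counts, 5 of 6 in mPRAT, 5 of 5 in iBAT and 4 of 4 in iWAT were past 2-fold in cold. Of all genes compared, 25.4% passed in mPRAT, 28% in iBAT and 20.9% in iWAT, and 10.4%, 10.3% and 3.75% passed in the higher direction, in which 5, 4 and 3 members passed. In the lower direction 15%, 17.7% and 17.2% of all genes passed, and 0, 1 and 1 members. The median log2 ratio of these members was 1.99 in mPRAT, 1.45 in iBAT and 2.10 in iWAT, beside -0.07, -0.13 and -0.26 over all genes. A low member enters through the library in which it is high, so these counts describe the members with enough counts and not the family. Without the mitochondrial limit the mPRAT log2 ratios were 2.23 for Elovl6, 4.75 for Elovl3 and 1.56 for Elovl5, and with a 5% limit they were 2.35, 4.83 and 1.70. Summed B-cell markers in the mPRAT adipocyte-like nuclei were at 210 CPM at 22 °C and 6.51 CPM in cold, and summed epithelial markers were at 17.0 and 245 CPM. At least 1 CPM was reached by 10 and 2 of the 10 B-cell markers and by 5 and 10 of the 10 epithelial markers, and none was at 0. Their part in the mPRAT ratios was not tested.

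A test of cold over the 3 depots, with the depot as a block and 6 libraries, was added after these ratios were seen. It takes the depots as the replicates of the cold response and has 2 residual degrees of freedom. Its variance estimates also draw on all genes, so its p-values do not rest on these 2 degrees of freedom alone. The labels do not say whether the 3 depots of a temperature came from the same mice, so its p-values do not measure spread between animals. By edgeR's quasi-likelihood test with Benjamini-Hochberg adjustment over 19586 genes, Elovl3 rose with cold in 3 of 3 depots, at a log2 ratio of 5.05 (SE 0.42, adjusted p = 0.0494). Elovl5, at 1.58 (SE 0.15, adjusted p = 0.0512), and Elovl6, at 2.38 (SE 0.34, adjusted p = 0.0703), did not pass a threshold of 0.05 in edgeR, though higher in 3 of 3 depots. Elovl4 (2.20), Elovl1 (-0.42) and Elovl7 (-0.02) did not pass in edgeR either, with adjusted p of 0.200, 0.582 and 0.990. Thus 1 of 6 members passed, where 0.133% of all genes did. The Elovl3 call did not hold in edgeR without mPRAT (adjusted p = 0.304) or without TMM scaling (0.0646), and in DESeq2 Elovl3, Elovl5 and Elovl6 passed (adjusted p = 4.51e-16, 1.18e-09 and 9.5e-10), where 9.94% of all genes did. Elovl5 and Elovl6 also passed in edgeR with a minimum count of 10 (adjusted p = 0.0421 and 0.0483), where 0.578% of all genes did, and without iWAT (0.0243 and 0.0344), where 7.44% did.

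**Figure D2:**
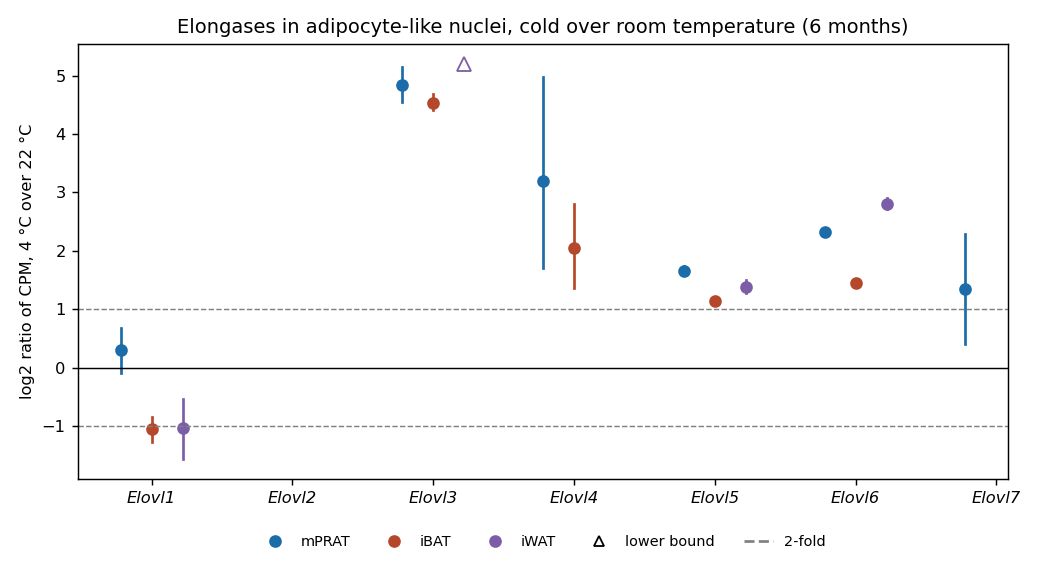
Log2 ratio of each member with at least 20 counts, cold over 22 °C at 6 months, in adipocyte-like nuclei of mPRAT, iBAT and iWAT. Bars are 95% counting intervals. The triangle is a bound with the library at 0 counts set to 3 counts, without counting error. Dashed lines mark 2-fold. Elovl3, Elovl5 and Elovl6 lie above the upper line in all 3 depots, and Elovl1 lies just beyond the lower line in iBAT and iWAT.

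The share of nuclei with at least 1 count of a member was compared after each nucleus was thinned to 1000 counts. Elovl6 was found in 27.4% of adipocyte-like nuclei of mPRAT at 22 °C and 66.7% in cold, before thinning 51.4% and 78.3%. In iBAT it was found in 62.4% and 95.1%, before thinning 78.5% and 99.5%. In iWAT the shares were 2.70% and 13.7%, before thinning 12.8% and 30.4%. Elovl6 was thus found in most thinned nuclei of cold iBAT and in a minority of those of cold iWAT.

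Elovl3 was found in 0.414% and 9.53% of thinned nuclei in mPRAT (1.79% and 30.4% before thinning), in 0.794% and 17.9% in iBAT (2.21% and 66.6% before thinning), and in 0 of 4806 nuclei in iWAT, which by a limit of 3 counts allows up to 0.0624%, and 0.457% in cold iWAT. Elovl5 was found in 7.19% and 17.8% in mPRAT, 7.35% and 15.8% in iBAT and 3.50% and 8.54% in iWAT. Free RNA was gauged in macrophage-like nuclei, whose median depths were 934 to 2270 counts against 2315 to 6765 for adipocyte-like nuclei of these 6 libraries. Their gate asks for at least 2 times the marker counts of every other class. It can thus leave out nuclei with much free adipocyte RNA, so the gauge can be too low. A share can also include a macrophage's own expression of the gene, which was not tested. In thinned macrophage-like nuclei of cold iBAT, Elovl6 was found in 30.0% and Elovl3 in 4.93%. For Elovl6 the intervals of the macrophage-like and adipocyte-like shares overlapped in iWAT at 22 °C, at 1.22% (0.252% to 3.52%) and 2.70% (2.26% to 3.20%), and were apart in the other 5 libraries. For Elovl3 they were apart in cold mPRAT and cold iBAT and overlapped in mPRAT, iBAT and iWAT at 22 °C and in cold iWAT, where 0 macrophage-like nuclei had a count, which by the same limit of 3 counts allows up to 1.20%, 3.85%, 1.22% and 1.40%. For Elovl5 the thinned macrophage-like shares at 22 °C were 4.42% in mPRAT (2.23% to 7.77%), 2.56% in iBAT (0.312% to 8.96%) and 4.88% in iWAT (2.55% to 8.37%), and in cold they were 8.33%, 4.93% and 8.88%. The intervals overlapped those of adipocyte-like nuclei in mPRAT, iBAT and iWAT at 22 °C and in cold iWAT. In macrophage-like nuclei Elovl5 stood at 50.9% to 128% of the adipocyte level at 22 °C in these depots, beside free-RNA references of 6.36% to 20.3%.

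Age was followed at 22 °C. From 1 to 6 months Elovl6 was 2.18-fold higher in iBAT (2.13 to 2.23), with steps of log2 0.40 from 1 to 2 months and 0.73 from 2 to 6 months. In mPRAT its log2 ratio over the same span was -0.14 (-0.20 to -0.08), or 0.02 with edgeR's trimmed mean (TMM) scaling. In lPRAT, sampled at 2 and 6 months, Elovl6 fell by 1.47 on the log2 scale (-1.81 to -1.12), on 103 and 228 counts. Median depths of these adipocyte-like nuclei were 923 and 6500.5 counts. Summed stromal progenitor markers in them were at 680 and 274 CPM and macrophage markers at 181 and 61.3 CPM, whereas mural markers were at 56.1 and 111 CPM. The part of depth and of these markers in the lPRAT ratio was not tested. Elovl6 was thus past 2-fold higher in iBAT from 1 to 6 months and past 2-fold lower in lPRAT from 2 to 6 months. Over the span from 2 to 6 months iBAT, at log2 0.73, was short of 2-fold.

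Elovl3 was past 2-fold higher at 6 months than at 1 month in both brown depots. In iBAT it went from 4 counts at 1 month to 94 at 2 months and 446 at 6 months, a log2 ratio of 4.88 from 1 to 6 months (3.51 to 6.76). In mPRAT it went from 5 to 25 to 103 counts, a log2 ratio of 1.94 (0.67 to 3.60). The iBAT step from 2 to 6 months, at log2 0.83, and the mPRAT step, at 0.30, did not pass 2-fold. With 1 CPM added the log2 ratios from 1 to 6 months were 2.91 in iBAT and 1.25 in mPRAT.

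Elovl5 had log2 ratios of -0.74 in mPRAT (-0.86 to -0.61) and 0.79 in iBAT (0.68 to 0.91) from 1 to 6 months, neither past 2-fold. In lPRAT its log2 ratio from 2 to 6 months was -0.12 (-0.35 to 0.12), or 0.04 with TMM scaling. Elovl7 was lower in mPRAT at 6 months than at 1 month, with a log2 ratio of -2.35 (-3.31 to -1.39) on 20 and 21 counts, which ran from -3.05 as a mean of nuclei to -1.45 with 1 CPM added. Kidney tubule markers summed to 111 and 130 CPM in mPRAT adipocyte-like nuclei at 1 and 2 months and to 3.30 CPM at 6 months and 0.528 CPM in cold, where 7 of the 10 were at 0 (Slc5a2, Slc22a6, Hnf4a, Slc12a1, Umod, Slc12a3 and Calb1). At 6 months and 22 °C Slc22a6 alone was at 0. The part of these markers in the Elovl7 ratio was not tested.

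From 1 to 6 months, 2 of 5 members with enough counts passed 2-fold in mPRAT, where 22.4% of all genes did, and 2 of 5 in iBAT, where 20.3% did. From 2 to 6 months in lPRAT 1 of 3 passed, where 26.8% of all genes did. In the shorter steps 1 of 5 passed from 1 to 2 months in mPRAT (10.9% of all genes), 1 of 5 from 2 to 6 months in mPRAT (19%), 1 of 4 from 1 to 2 months in iBAT (9.06%) and 0 of 5 from 2 to 6 months in iBAT (17.8%). The steps within a depot share libraries and are not independent, and a low member can enter through the library in which it is high.

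Depots were compared at matched age and temperature. At 6 months Elovl6 was 49.0-fold higher in iBAT than in iWAT (46.3 to 51.9), 16.2-fold higher in mPRAT than in iWAT (15.3 to 17.2) and 36.5-fold higher in mPRAT than in lPRAT (32.0 to 41.8). With all kept nuclei the log2 ratios of mPRAT over iWAT and over lPRAT were 3.32 in place of 4.02 and 4.30 in place of 5.19. At 2 months it was 15.3-fold higher in mPRAT than in lPRAT (12.6 to 18.7). The white depots differed too, with a log2 ratio of lPRAT over iWAT of -1.17 (-1.38 to -0.96), or -0.98 with all kept nuclei, which is short of 2-fold.

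Elovl3 had 0 counts in iWAT at 6 months. With iWAT set to the floor of 3 counts, it was 48.1-fold higher in mPRAT and 118-fold higher in iBAT (log2 5.59 and 6.88, or 2.20 and 3.29 with 1 CPM added). These values leave out counting error. Against lPRAT, with 3 counts, the Elovl3 log2 ratio in mPRAT at 6 months was 4.32 (2.73 to 6.62). At 2 months lPRAT had 0 counts, and with lPRAT set to 3 counts the mPRAT level was 2.64-fold that of lPRAT, again without counting error. The log2 ratio at 6 months ran from 1.96 with 1 CPM added to 5.74 as a mean of nuclei, and the call at 2 months did not hold with at least 1000 counts per nucleus (0.81). Elovl5 at 6 months was 2.51-fold higher in iBAT than in iWAT (2.37 to 2.67) and 2.28-fold higher in mPRAT than in iWAT (2.13 to 2.44). Against lPRAT its log2 ratio in mPRAT was 0.40 at 6 months and 0.67 at 2 months, both short of 2-fold.

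Between the brown depots, mPRAT had the higher Elovl5 level at 1 and 2 months, and iBAT had the higher Elovl6 level at all 3 ages. Elovl5 was 2.62-fold higher in mPRAT than in iBAT at 1 month (2.36 to 2.92), with log2 ratios of 0.88 at 2 months and -0.14 at 6 months. The call at 1 month did not hold with all kept nuclei (log2 0.86 in place of 1.39). For Elovl6 the log2 ratio of mPRAT over iBAT was -0.33 at 1 month, -0.65 at 2 months and -1.59 at 6 months (-1.62 to -1.57), past 2-fold at 6 months. For Elovl3 it was -0.76 at 2 months, or -1.30 and past 2-fold with all kept nuclei, and -1.29 at 6 months (-1.61 to -0.98). Elovl7 had log2 ratios of 4.65, 2.40 and 2.41 at 1, 2 and 6 months, with 20, 19 and 21 counts in mPRAT and 2, 8 and 7 in iBAT. With 1 CPM added they were 2.04, 1.18 and 0.60, so the call at 6 months did not hold, and with all kept nuclei they were 5.45, 5.28 and 4.50. Summed kidney tubule markers in adipocyte-like nuclei at 1 and 2 months were at 111 and 130 CPM in mPRAT and at 4.24 and 2.36 CPM in iBAT, and their part in these ratios was not tested.

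In cold, Elovl6 and Elovl3 had log2 ratios of mPRAT over iBAT of -0.72 and -0.99, and Elovl5 of 0.39, all short of 2-fold. Elovl3 passed 2-fold with all kept nuclei (-1.36), TMM scaling (-1.24) and no mitochondrial limit (-1.06), and Elovl6 with all kept nuclei (-1.07). Against cold iWAT, Elovl6 was 11.7-fold higher in cold mPRAT and 19.2-fold higher in cold iBAT, and Elovl3 was 37.3-fold and 74.2-fold higher. Elovl5 was 2.76-fold and 2.11-fold higher in the same comparisons.

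Of the members with enough counts at 6 months and 22 °C, 4 of 5 passed 2-fold between iBAT and iWAT, where 38.8% of all genes did, and 4 of 5 between mPRAT and iWAT, where 22.5% did. Between mPRAT and lPRAT 3 of 5 passed at 6 months, where 24.4% of all genes did, and 2 of 5 at 2 months, where 30.5% did. Between mPRAT and iBAT 2 of 4 passed at 1 month, 1 of 5 at 2 months and 4 of 6 at 6 months, where 18%, 18% and 23.8% of all genes did. Between lPRAT and iWAT 1 of 3 passed, where 21.2% of all genes did. In cold 1 of 6 passed between mPRAT and iBAT (21.7% of all genes), 6 of 6 between mPRAT and iWAT (34.3%) and 4 of 5 between iBAT and iWAT (44.7%). These comparisons share libraries. As with cold, a low member can enter through the library in which it is high. Between cold mPRAT and cold iWAT, Elovl4 had 18 and 3 counts and Elovl7 had 21 and 1. At 6 months and 22 °C Elovl4 had 5 counts in mPRAT, 20 in iBAT and 5 in iWAT. Its log2 ratio of mPRAT over iBAT was -1.18, with an interval that includes 0 (-2.95 to 0.28), and -0.006 with all kept nuclei. For iBAT over iWAT it was 1.66 (0.21 to 3.43), and -1.10 as a mean of nuclei. The numbers passing thus describe the members with enough counts and not the family.

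Other cell classes were compared with adipocyte-like nuclei within each library. Endothelial-like nuclei, gated on markers such as Pecam1 and Flt1, had 166 to 369 CPM of Elovl5 over 11 libraries, above the adipocyte-like level in 11 of 11 and with separate intervals in 10. In T- or NK-cell-like nuclei Elovl5 had a median of 199 CPM over 8 libraries and a highest level of 277 CPM. Adrenal-cortex-like nuclei of mPRAT had 170 CPM at 22 °C and 177 CPM in cold. Skeletal-muscle-like nuclei of iBAT had 0 to 19.2 CPM.

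Cold ratios of Elovl5 in endothelial-like nuclei were smaller than in adipocyte-like nuclei. They went from 263 to 254 CPM in mPRAT and from 278 to 265 CPM in iWAT, and from 224 to 369 CPM in iBAT, a log2 ratio of 0.72 (0.39 to 1.06). In stromal-progenitor-like nuclei, gated on markers such as Pdgfra and Dcn, Elovl5 had 55.5 CPM at 22 °C and 55.7 CPM in cold in mPRAT, and its log2 ratio was 0.22 in iBAT (-0.29 to 0.75) and 0.20 in iWAT (-0.37 to 0.76). None of these passed 2-fold.

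In every mPRAT and iBAT library Elovl6 was lower in each other class than in adipocyte-like nuclei, at 2.54% to 39.4% of their level. The free-RNA reference was the level of Aqp7, Gpd1, Pck1 and Tshr in a class as a percentage of that in adipocyte-like nuclei. It can include a class's own expression of these genes, which was not tested. In cold iBAT, macrophage-like nuclei had 395 CPM of Elovl6, 9.63% of the adipocyte level, beside a free-RNA reference of 19.3%. In the white depots at 6 months and 22 °C stromal-progenitor-like nuclei were among the classes with a higher level than adipocyte-like nuclei. In lPRAT they had 43.6 CPM (34.0 to 55.1) against 13.6 CPM (11.9 to 15.5) in adipocyte-like nuclei. In iWAT they had 55.0 CPM (46.0 to 65.4) against 30.6 CPM (29.0 to 32.4). The free-RNA references there were 3.80% and 4.78%. Mesothelial-like nuclei of lPRAT had 36.2 CPM on 36 counts, and in iWAT the T- or NK-cell-like class had 110 CPM on 68 counts, with intervals also above those of adipocyte-like nuclei. In cold iWAT adipocyte-like nuclei had the higher level, at 214 against 44.0 CPM. In cold the stromal-progenitor-like log2 ratios of Elovl6 were 0.21 in mPRAT (-0.22 to 0.62), -0.32 in iWAT (-0.85 to 0.18) and 1.40 in iBAT (1.11 to 1.69). In iBAT these nuclei had 139 and 366 CPM, 9.26% and 8.93% of the adipocyte level, both below the free-RNA references of 14.9% and 15.7%. Other classes had higher Elovl6 in cold with intervals above 0. In mPRAT the log2 ratio was 1.75 in endothelial-like (0.86 to 2.63), 1.90 in macrophage-like (1.12 to 2.73), 1.53 in T- or NK-cell-like (0.67 to 2.28) and 0.91 in adrenal-cortex-like nuclei (0.42 to 1.41). In cold mPRAT these classes stood at 5.34%, 4.33%, 7.88% and 6.75% of the adipocyte level, beside free-RNA references of 20.6%, 5.66%, 8.23% and 4.73%. In iWAT the log2 ratio was 1.80 in endothelial-like nuclei (0.23 to 3.81) on 4 and 20 counts, at 25.2% of the adipocyte level in cold beside a reference of 13.8%. Cold iBAT had the highest Elovl6 level of any library in endothelial-like (385 CPM), mural-like (411 CPM), macrophage-like (395 CPM), B-cell-like (643 CPM) and T- or NK-cell-like nuclei (594 CPM). Adipocyte-like nuclei there had 4100.2 CPM.

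Elovl3 in cold iBAT had 25.8 CPM in stromal-progenitor-like and 65.7 CPM in endothelial-like nuclei against 204 CPM in adipocyte-like nuclei, beside free-RNA references of 15.7% and 41.5%. The reference thus differed between classes of the same library, and whether endothelial-like nuclei express its genes themselves was not tested. Elovl7 was highest in kidney-tubule-like nuclei of mPRAT, with 79.8 CPM at 1 month (14 counts in 159 nuclei) and 61.2 CPM at 2 months (45 counts in 214 nuclei). Elovl1 was above the adipocyte-like level in stromal-progenitor-like nuclei of 11 of 12 libraries, with separate intervals in 7, and in endothelial-like nuclei of 11 of 11, with separate intervals in 6.

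**Figure D3:**
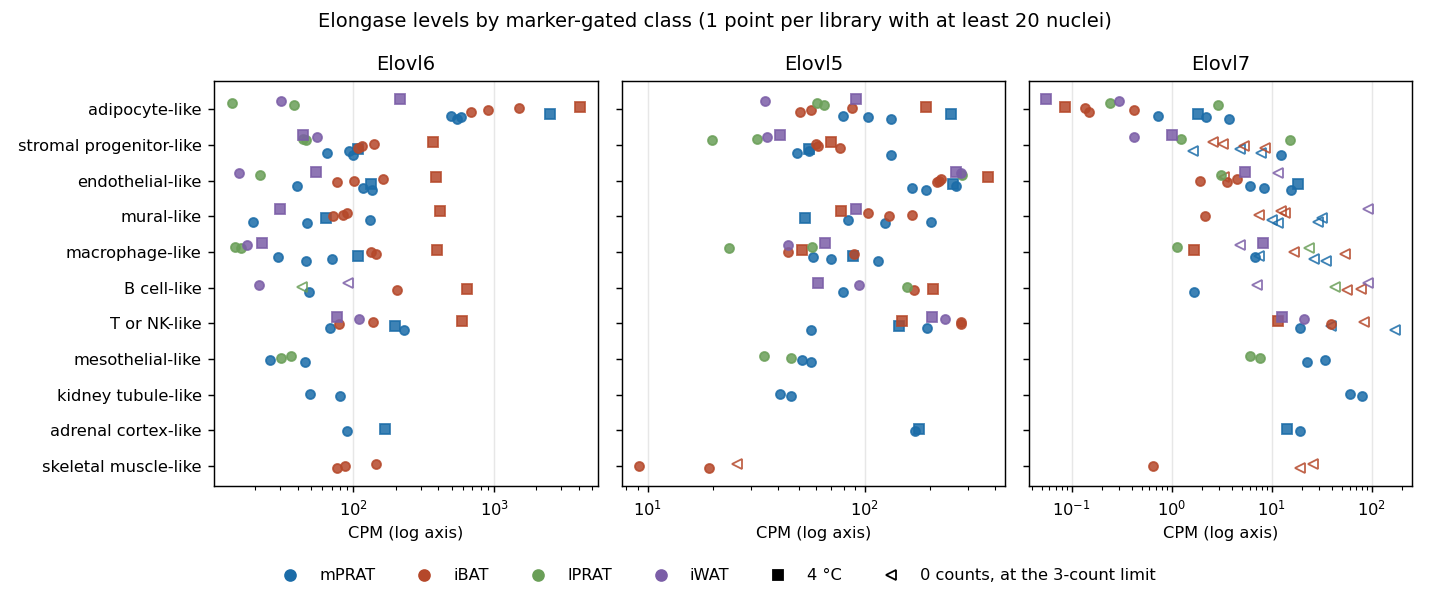
CPM of Elovl6, Elovl5 and Elovl7 by marker-gated class on a log axis, 1 point for each library with at least 20 nuclei of the class. The highest Elovl6 points are adipocyte-like, Elovl5 points of endothelial-like nuclei lie at 166 to 369 CPM, and the 2 kidney-tubule-like Elovl7 points lie at 61.2 and 79.8 CPM.

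Within the adipocyte-like class, nuclei with at least 1 Ucp1 count were compared with nuclei with 0 in the 9 libraries with at least 50 nuclei of each kind. Free Ucp1 RNA was not gauged, and its part in this gate was not tested. Elovl6 was higher in Ucp1-positive nuclei of mPRAT, at 803 against 510 CPM at 1 month, 1028 against 447 at 2 months, 1122 against 257 at 6 months and 3447 against 1058 in cold. In iBAT the levels were 706 against 677, 976 against 838, 1707 against 1220 and, in cold, 4123 against 2678 CPM. In cold iWAT they were 1046 CPM in 156 Ucp1-positive nuclei and 176 CPM in 2740 others, and the Ucp1-positive nuclei held 814 of 3824 Elovl6 counts.

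Whether Ucp1 is found depends on depth, and median depths were 6798 counts in Ucp1-positive and 5049 in other nuclei of cold iBAT, but 3922 and 4766 in cold iWAT. The gate was therefore repeated on nuclei thinned to 1000 counts. In cold iBAT the thinned gate held 8105 Ucp1-positive and 2813 other nuclei, against 10736 and 240 at full depth. In cold mPRAT it held 914 and 1248, against 1353 and 885. Nuclei that lose their Ucp1 counts in thinning join the other group, which can draw a ratio toward 1. The part of this in the thinned ratios was not tested, so they are not ratios corrected for depth. With the thinned gate the Elovl6 ratios were 1.45, 2.24, 3.15 and 1.95 in mPRAT at 1, 2 and 6 months and in cold, against 1.58, 2.30, 4.36 and 3.26 with full depth. In iBAT they were 0.97, 1.12, 1.32 and 1.04, and in cold iWAT 6.80 against 5.94. Elovl3 in cold mPRAT stood at 160 against 15.0 CPM, in cold iBAT at 206 against 84.7 CPM and in cold iWAT at 43.7 against 0.878 CPM, and the thinned ratios were 2.87, 1.16 and 22.3. Elovl5 had no single direction. In mPRAT it was lower in Ucp1-positive nuclei at 1 and 2 months, at 96.8 against 138 and 69.4 against 113 CPM, higher at 6 months, at 86.5 against 76.7 CPM, and lower in cold, at 217 against 302 CPM. The thinned ratios there were 0.68, 0.52, 1.04 and 0.75, and the interval at 6 months (0.91 to 1.18) included 1. In iBAT it had 49.8 against 51.0 CPM at 1 month and 55.3 against 57.3 CPM at 2 months. It was higher in iBAT at 6 months, at 103 against 66.9 CPM (ratio 1.53, or 1.28 thinned), and lower in cold, at 191 against 279 CPM (ratio 0.68, or 0.90 thinned). In cold iWAT it had 95.1 against 90.9 CPM (ratio 1.05, or 0.87 thinned).

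Ucp1 itself was higher in cold, at 185 and 700 CPM in mPRAT and 426 and 1459 CPM in iBAT at 22 °C and in cold, so the gate holds different nuclei at each temperature and the cold ratios within it are a description. In mPRAT the Elovl6 log2 ratio was 1.62 in Ucp1-positive nuclei and 2.04 in nuclei with 0 Ucp1 counts, and in iBAT 1.27 and 1.13, and with the thinned gate they were 1.50 and 2.20 in mPRAT and 1.19 and 1.54 in iBAT. In iWAT nuclei with 0 Ucp1 counts it was 2.55, from 30.0 to 176 CPM, with an Elovl5 log2 ratio of 1.39. Between 1 and 6 months in mPRAT the Elovl6 log2 ratio was 0.48 in Ucp1-positive nuclei and -0.99 in the others, or 0.71 and -0.42 with the thinned gate. The difference between the gates was not tested.

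**Figure D4:**
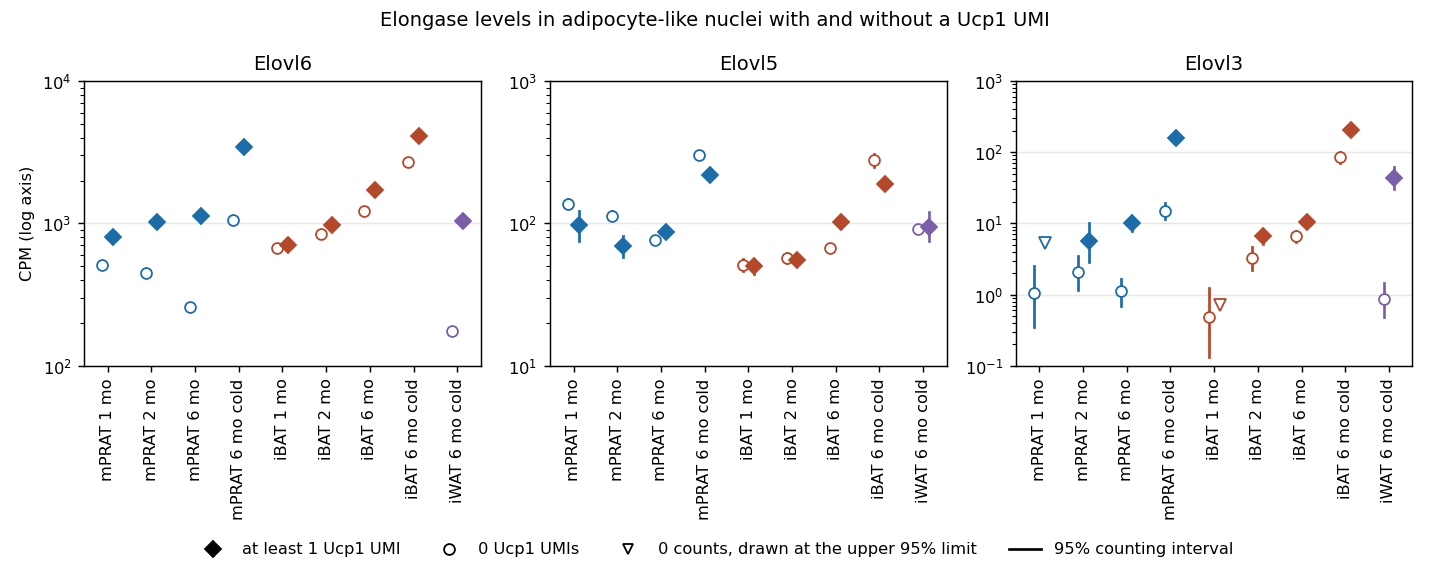
CPM of Elovl6, Elovl5 and Elovl3 in adipocyte-like nuclei with at least 1 Ucp1 count and with 0, in 9 libraries, with 95% counting intervals on a log axis. At full depth Elovl6 is higher in Ucp1-positive nuclei of each of the 9 libraries, by most in cold iWAT (1046 against 176 CPM) and by least in iBAT at 1 month (706 against 677 CPM), and the Elovl5 points lie above in some libraries (103 against 66.9 CPM in iBAT at 6 months) and below in others (217 against 302 CPM in cold mPRAT).

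Genes of the same pathway were taken from lists. The suppliers of malonyl-CoA and palmitate (citrate export, ATP citrate lyase, acetyl-CoA synthetase and carboxylases, fatty acid synthase and malic enzyme) were past 2-fold higher in cold for 6 of 7 in mPRAT, 1 of 7 in iBAT and 7 of 7 in iWAT, with none lower. Of all genes 10.4%, 10.3% and 3.75% were past 2-fold higher and 15%, 17.7% and 17.2% lower, so 1 of 7 in iBAT is near the share of all genes. Their median log2 ratios were 1.24, 0.39 and 2.73. Acly, which makes cytosolic acetyl-CoA, had the largest in mPRAT and iWAT, at 1.66 and 3.28, and Me1, which makes NADPH, had the largest in iBAT, at 1.48. Beside these, Elovl6 had 2.33 in mPRAT, above each of its 7 substrate suppliers, 1.45 in iBAT, above their median and just under Me1, and 2.80 in iWAT, close to their median.

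Desaturases were past 2-fold higher for 4 of 7 in mPRAT, 2 of 7 in iBAT and 3 of 5 in iWAT, beside 10.4%, 10.3% and 3.75% of all genes, with 1 lower in each, beside 15%, 17.7% and 17.2%. Scd2, a stearoyl-CoA desaturase that acts on the product of ELOVL6, had log2 ratios of 2.26, 2.12 and 2.98. Scd3, another gene of the Scd family, had 2.76 in mPRAT and 2.35 in iBAT. The lower ones were Fads3 in mPRAT at -1.42 and in iBAT at -1.85, and Fads2, the entry desaturase of polyunsaturated synthesis, in iWAT at -1.48, which in mPRAT was higher at 2.08. The partners in the elongation cycle, the reductases and dehydratases shared by all members, were past 2-fold higher for 1 of 7, 1 of 6 and 1 of 6 and lower for 0, 0 and 1, with medians of 0.47, 0.21 and 0.25. In mPRAT and iBAT these counts are near the shares of all genes. These were Hacd4 in mPRAT at 1.11, Hacd2 in iBAT at 1.13 and Hsd17b12, the ketoacyl-CoA reductase, in iWAT at 1.87, and Hacd4 was lower in iWAT at -1.66.

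Of the lipogenic regulators 2 of 9, 2 of 9 and 1 of 9 were past 2-fold higher and none lower, beside 10.4%, 10.3% and 3.75% of all genes higher and 15%, 17.7% and 17.2% lower. Mlxipl, the carbohydrate response factor ChREBP, had 1.18 in mPRAT and 1.08 in iBAT, and Insig1, a sterol-responsive retention protein, had 1.11, 1.08 and 2.19. The users of long-chain acyl-CoA, ceramide synthases and peroxisomal transporters, had 0 of 8 past 2-fold higher and 5 of 8 lower in iBAT, where 10.3% of all genes were higher and 17.7% lower, with Abcd2, a peroxisomal transporter, at -2.82. The lower ones besides Abcd2 were the ceramide synthases Cers3, Cers4, Cers5 and Cers6, at -1.01 to -1.31. In mPRAT Cers3 was higher, at 1.83, and Abcd2 lower, at -1.26. In iWAT Abcd3 was higher, at 1.11, and none of 8 was lower.

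**Figure D5:**
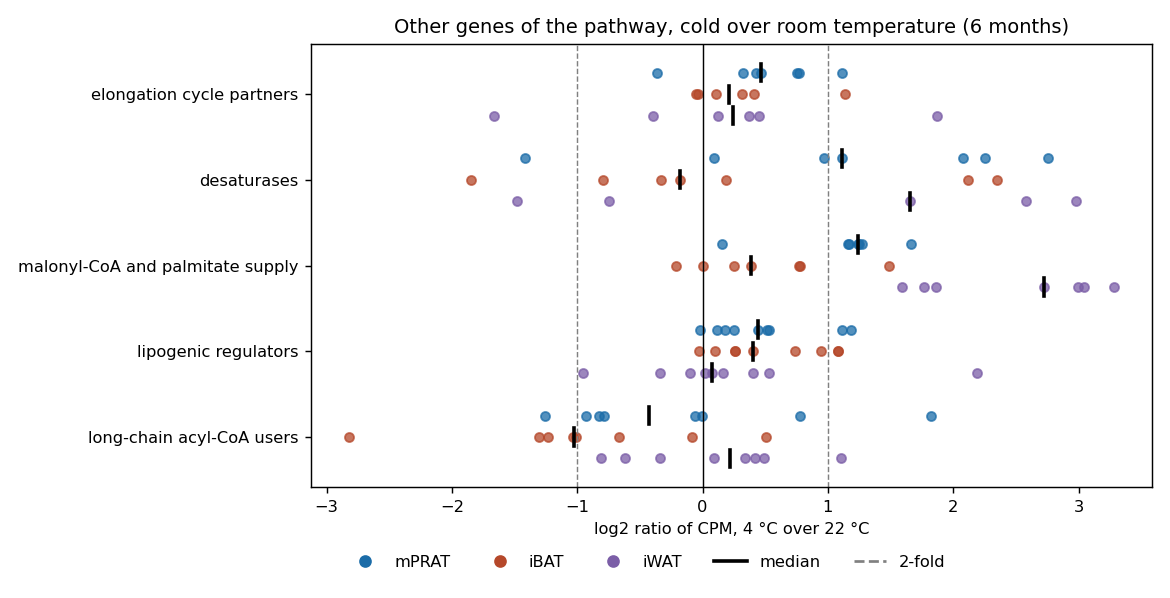
Log2 cold ratios of the genes of 5 pathway lists in adipocyte-like nuclei of mPRAT, iBAT and iWAT, 1 point per gene with at least 20 counts; bars are medians and dashed lines mark 2-fold. Suppliers of malonyl-CoA and palmitate have medians of 1.24, 0.39 and 2.73, and the elongation cycle partners have medians of 0.47, 0.21 and 0.25.

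From 1 to 6 months 2 of 7 suppliers were past 2-fold in mPRAT, 1 higher and 1 lower, where 22.4% of all genes passed either way. In iBAT 3 of 7 were, all higher (Acaca, Me1 and Fasn), where 20.3% of all genes passed either way. The suppliers' median log2 ratio was 0.01 in mPRAT and 0.92 in iBAT. From 2 to 6 months in lPRAT it was -0.77, with 2 of 7 past 2-fold, both lower, where 26.8% of all genes passed either way, a like share. These were Fasn at -2.09 and Acly at -2.06, next to Elovl6 at -1.47. Between iBAT and iWAT at 6 months Fasn and Acly had log2 ratios of 5.62 and 4.82, next to 5.61 for Elovl6.

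Likeness over the 12 adipocyte-like sums was described by Pearson's r of log2(CPM + 1) among 6466 genes with a mean of at least 20 CPM. The genes most like Elovl6 were Acot11 (0.983), Hdhd2 (0.982), Spata17 (0.982), Lurap1 (0.979) and Ppp1r3b (0.979). Those most like Elovl3 were Ddhd2 (0.966), Tmem41b (0.964), Usp33 (0.961), Pdss1 (0.959) and Nhej1 (0.959). Those most like Elovl5 were Stard5 (0.892), Scd2 (0.880), Riok2 (0.875), Atp5g2 (0.871) and Aacs (0.867). Between the members, r was 0.815 for Elovl3 and Elovl5, 0.785 for Elovl3 and Elovl6 and 0.677 for Elovl5 and Elovl6. All points share depot, temperature and library depth, so these values rank likeness in this set of libraries.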

How the data were processed

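Nuclei from adipose tissue had been sorted on 7-AAD and sequenced with 10x 3′ chemistry, per the labels' protocols. The deposited values are raw counts of unique molecular identifiers per gene and barcode, made with Cell Ranger 7.0.0 on mm10 per the submitters' processing notes; the annotation, the counting of introns and later filters of the authors are not given in the sources used here. Barcodes with at least 500 counts, at least 300 genes and at most 10% mitochondrial counts were kept. A nucleus joined a class with at least 3 of its markers and at least 2 times the marker counts of every other class, which doublets of different classes can still meet; no doublet caller was run, and classes from clusters would differ. Counts were summed per library and class and divided by the class total to give CPM. Ratios carry exact conditional binomial 95% intervals, levels exact Poisson intervals and shares Clopper-Pearson intervals, and a share of 0 is given the limit that 3 counts set. A gene entered a ratio with at least 20 counts over both libraries, a ratio of at least 2-fold was called, and a library with 0 counts was set to 3 counts. With 1 library per group no pair of groups was tested; cold was tested over the 3 depots as blocks with edgeR's quasi-likelihood test (TMM factors, at least 20 counts over 6 libraries), an addition made after seeing the data that was tested on simulated data, with SEs taken from the log2 ratio and its F statistic and DESeq2 1.42.0 as an alternative, and 0 columns of values were left out. The ratio and interval code was tested on simulated data. Members above 20 CPM in a library were described in full. Genes of the pathway lists were named by the 1 or 2 largest ratios, and otherwise by a count of 5 or fewer past 2-fold, chosen after their values were seen. The members and lists were chosen with earlier results of these data known. Alternatives were tried for filters, gating, TMM scaling (edgeR 4.0.16, R 4.3.3), the count minimum, an added 1 CPM and thinning to 1000 counts. Python 3.11.15, numpy 2.4.6, scipy 1.17.1 and pandas 2.3.3 were used.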

Additional observations from a re-analysis of the deposited data

Results flagged for a closer look

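For 10 pairs of ratios each of the library pairs moved in the opposite direction to the other, with counting intervals apart from 0, and with 1 library per group none of these differences was tested. The differences are given on the log2 scale as the second ratio minus the first. For Elovl5 with age, iBAT against mPRAT differed by 0.51 from 1 to 2 months, by 1.02 from 2 to 6 months and by 1.53 from 1 to 6 months. For Elovl6, iBAT against mPRAT differed by 0.94 from 2 to 6 months and by 1.26 from 1 to 6 months, and lPRAT against iBAT by -2.20 from 2 to 6 months. For the ratio of mPRAT over iBAT, Elovl1 differed by 1.35 between 22 °C and cold at 6 months. For the same ratio Elovl5 differed by -1.53 between 1 and 6 months, by -1.02 between 2 and 6 months and by 0.53 between 22 °C and cold. The Elovl5 entries share the same libraries and are not independent of each other. The Elovl6 entry from 1 to 6 months rests on a mPRAT log2 ratio of -0.14, which was 0.02 with TMM scaling. With all kept nuclei in place of adipocyte-like nuclei, log2 ratios under other entries changed sign: Elovl5 in mPRAT from 2 to 6 months was 0.25 in place of -0.38, Elovl5 in iBAT from 1 to 2 months -0.11 in place of 0.16, and for mPRAT over iBAT at 6 months Elovl5 was 0.06 in place of -0.14 and Elovl1 0.18 in place of -0.45.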

How the results depend on the processing

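Each group has 1 library, so replicate numbers pair nothing. The only paired fit was that of cold with the depot as block. Across 11 alternative settings, 1081 of 1107 values of 102 member ratios kept their direction, and 41 of the 54 ratios past 2-fold stayed past it in each setting run. Those that reversed were Elovl7 in mPRAT over iWAT at 6 months, -0.11 as a mean of nuclei against 1.29, and Elovl4 in iBAT over iWAT at 6 months, -1.10 against 1.66; the cause was not tested for these or for the counts below. The number of members past 2-fold moved by more than 1.5 times as follows, and by less in 25 further cases, among them cold mPRAT (4 in place of 5 in 3 settings) and cold iWAT (3 or 5 in place of 4 in 4 settings). With all kept nuclei it was 2 in place of 1 in mPRAT from 2 to 6 months, 1 in place of 0 in iBAT from 2 to 6 months, 2 in place of 1 in lPRAT, 1 in place of 2 and 3 in place of 1 for mPRAT over iBAT at 1 and 2 months, 4 in place of 1 for the same in cold, and 0 in place of 1 for lPRAT over iWAT. Without the deepest 5% of nuclei it was 2 in place of 1 in mPRAT from 1 to 2 months, 0 in place of 1 from 2 to 6 months, and 1 in place of 2 and 0 in place of 1 for mPRAT over iBAT at 1 and 2 months. With 1 CPM added it was 0 in place of 1 in mPRAT from 2 to 6 months, 3 in place of 5 in cold iBAT and 2 in place of 4 for mPRAT over iBAT at 6 months. With a minimum count of 10 it was 2 in place of 1 in iBAT from 1 to 2 months, 1 in place of 0 in iBAT from 2 to 6 months and 2 in place of 1 in lPRAT. With at least 1000 counts per nucleus it was 1 in place of 2 for mPRAT over iBAT at 1 month and over lPRAT at 2 months, and with 3 times the other classes 1 in place of 2 for mPRAT over iBAT at 1 month. As a mean of nuclei it was 2 in place of 1 in mPRAT from 1 to 2 months, and for mPRAT over iBAT in cold it was 2 in place of 1 as a mean of nuclei, without a mitochondrial limit and with TMM scaling.

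Without thinning, the shares of nuclei with Elovl3, Elovl5 and Elovl6 were 1.79%, 29.3% and 51.4% in mPRAT at 6 months, 30.4%, 45.5% and 78.3% in cold mPRAT, 2.21%, 15.6% and 78.5% in iBAT at 6 months, and 66.6%, 55.7% and 99.5% in cold iBAT. In iWAT Elovl5 and Elovl6 were at 17.8% and 12.8%, and in cold iWAT the 3 members were at 1.38%, 31.6% and 30.4%. The Ucp1 gate on thinned nuclei, added after seeing the data, kept the direction of 23 of 25 ratios and moved 5 of them by more than 1.5-fold. The cold test with the depot as block, also added after seeing the data, called 1 member in edgeR, 0 without TMM scaling, 3 with a minimum count of 10 (0.578% of all genes), 3 in DESeq2 (9.94%) and 0 to 3 with a depot left out. It called 0 without mPRAT (0% of all genes, 1407 at an unadjusted p under 0.05), 1 without iBAT (0.201%) and 3 without iWAT (7.44%); without TMM scaling edgeR called 0 of all genes (3796 at an unadjusted p under 0.05) and DESeq2 called 1645, against 26. TMM scaling moved the median log2 ratio of all genes by 0.18 in cold iBAT and in cold iWAT, by 0.23 in mPRAT from 1 to 2 months and over lPRAT at 2 months, and by -0.25 and -0.19 for mPRAT over iBAT and over iWAT in cold. The share of higher calls went from 36.8% to 47.4% in cold iBAT, from 23.8% to 45.7% in mPRAT from 1 to 2 months and from 67.1% to 53.1% for mPRAT over iBAT in cold. It went from 17.9% to 27.3% in cold iWAT and from 70.1% to 60.6% for mPRAT over iWAT in cold. It also went from 43.2% to 55.0% in mPRAT and from 44.0% to 54.4% in iBAT from 1 to 6 months, from 29.5% to 40.6% in iBAT from 1 to 2 months, from 54.6% to 64.8% in lPRAT from 2 to 6 months, from 71.9% to 60.4% for mPRAT over iBAT at 1 month and from 45.2% to 59.1% for mPRAT over lPRAT at 2 months. With all kept nuclei it was 33.2% in cold iWAT, 44.5% in place of 60.7% in iBAT from 2 to 6 months and 32.6% from 1 to 6 months, 83.0%, 79.4% in place of 67.0%, and 78.8% for mPRAT over iBAT at 1 month, 6 months and in cold, 79.5% in place of 57.7% for mPRAT over iWAT, 70.1% in place of 49.7% for lPRAT over iWAT and 46.6% in place of 57.6% for iBAT over iWAT in cold. It was 45.8% for mPRAT over iWAT as a mean of nuclei and 80.7% for mPRAT over iBAT in cold with 1 CPM added. Low counts limit Elovl2, Elovl4 and Elovl7 most, which had 24, 202 and 130 counts in adipocyte-like nuclei of all libraries. The part of depth in these low counts was not tested.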
